A study of Homo sapiens with 5 samples.

Results

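Interferon-stimulated genes (ISGs) are described here in RPE1 cells treated with doxorubicin. The members were 48 well-known ISGs given as a list of symbols, and every symbol was found among the 26485 genes of the count table. Of these, 45 had at least 1 count and 41 passed the filter on low counts and were tested. RNA-seq of poly-A RNA was available for 5 libraries of wild-type RPE1, an hTERT-immortalised line of human retinal pigment epithelial cells. Cells received DMSO, the solvent of the drug (2 libraries), 0.2 µM doxorubicin (2 libraries) or 0.34 µM doxorubicin (1 library), each for 18 h. Doxorubicin is an anthracycline that intercalates into DNA and poisons topoisomerase II. The concentrations are those of the sample labels, and the treatment protocol gives larger micromolar values. The 3 doxorubicin libraries were compared as 1 group with the 2 DMSO libraries, and the lone 0.34 µM library has no replicate of its own.

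Type I interferons bind the receptor of IFNAR1 and IFNAR2, and the kinases JAK1 and TYK2 then phosphorylate STAT2. With IRF9, STAT2 acts in the complex ISGF3, which binds the interferon-stimulated response element (ISRE) at the promoters of ISGs. The products sense viral RNA, degrade or edit it, block its translation, trap virus at membranes or attach the ubiquitin-like protein ISG15 to other proteins. Many ISGs are also kept at a basal level without interferon, and several are inducible by IRF1 or IRF3 or through the gamma-activated site (GAS). DNA released into the cytosol can enter the same pathway through the sensor cGAS and its adaptor STING.

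The libraries held between 23773061 and 36725345 counts on genes, so that 3 counts corresponded to between 0.0827 and 0.125 CPM, the counts scaled to a common library size with TMM factors, as used throughout. Known responses to the drug were seen at the threshold used, an adjusted p of 0.01 in edgeR's quasi-likelihood test. The p53 target CDKN1A had a log2 fold change of 3.39 ± 0.23 (SE, adjusted p = 0.000768 in edgeR) and the mitotic kinase PLK1 one of -5.53 ± 0.16 (SE, adjusted p = 0.000136 in edgeR). Of the markers of retinal pigment epithelium, RPE65, RLBP1 and TYRP1 were under 1 CPM in every library, while KRT8, KRT18, MITF and OTX2 were each between 23.5 and 661 CPM. BEST1 was at 0.992 and 0.548 CPM in DMSO and at 3.33, 1.25 and 3.91 CPM in doxorubicin. The sum over the 8 markers of this list was 637 to 783 CPM in DMSO and 1049 to 1248 CPM in doxorubicin. Most of this sum was KRT8 and KRT18. KRT8 was at 369 and 346 CPM in DMSO and at 636 to 661 CPM in doxorubicin, and KRT18 at 327 and 238 CPM and at 334 to 515 CPM. MITF and OTX2 had log2 fold changes of 0.05 ± 0.28 (SE) and -0.021 ± 0.18 (SE) in edgeR. Of 6 leukocyte markers, 5 were under 1 CPM in every library and CD3E had no count. The sum over these markers was 0.47 to 0.534 CPM in DMSO and 1.20 to 2.62 CPM in doxorubicin, where PTPRC held 0.967 to 2.20 CPM of it, and its part in the results below was not tested. Of the 2 markers of plasmacytoid dendritic cells, CLEC4C had no count. The other, IL3RA, was at 1.22 and 0.94 CPM in DMSO and at 1.97, 2.58 and 2.23 CPM in doxorubicin. In bulk RNA, fewer cells of a type and less RNA per cell cannot be told apart.

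The ISRE was searched for as GAAA, any 2 bases and GAAA again, on both strands, in the RefSeq windows of GRCh38.p14 that run from 250 bases before to 50 bases after a gene start. Of the 48 members, 38 had a window, and 22 of these (57.9%) held at least 1 match, against 3.65% of all 27305 windows. The GAS, searched for as TTCNNNGAA, was found in 9 of the 38 (23.7%), against 7.88% of all windows. The stretches below were chosen to show members that lay higher, lower or overlapping after doxorubicin and 1 near 0 in every library. Each is written 5′ to 3′ on the strand of the gene, with the ISRE letters in capitals and 20 bases on either side of the outermost matches. All of them lie upstream of the gene start.
ISG15, higher, chr1:1013364-1013419, plus strand: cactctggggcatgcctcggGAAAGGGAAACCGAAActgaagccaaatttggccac
IFI6, higher, chr1:27672256-27672368, minus strand: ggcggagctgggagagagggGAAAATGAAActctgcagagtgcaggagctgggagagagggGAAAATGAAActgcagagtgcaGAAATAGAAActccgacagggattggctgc
IFIT3, non-overlapping and higher, chr10:89327821-89327904, plus strand: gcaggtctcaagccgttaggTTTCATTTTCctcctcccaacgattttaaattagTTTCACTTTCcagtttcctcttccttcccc
IFIT1, overlapping, chr10:89392487-89392549, plus strand: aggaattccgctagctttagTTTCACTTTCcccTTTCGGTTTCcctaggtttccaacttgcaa
SAMD9, non-overlapping and lower, chr7:93118086-93118135, minus strand: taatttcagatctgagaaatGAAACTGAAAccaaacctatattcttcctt
IFI44L, non-overlapping and lower, chr1:78620264-78620404, plus strand: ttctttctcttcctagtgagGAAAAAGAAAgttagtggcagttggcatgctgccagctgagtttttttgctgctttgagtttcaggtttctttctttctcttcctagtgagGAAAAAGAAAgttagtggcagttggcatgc
BST2, near 0 in every library, chr19:17405725-17405780, minus strand: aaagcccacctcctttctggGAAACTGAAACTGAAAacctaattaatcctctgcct
HERC5, replicates far apart, chr4:88456974-88457074, plus strand: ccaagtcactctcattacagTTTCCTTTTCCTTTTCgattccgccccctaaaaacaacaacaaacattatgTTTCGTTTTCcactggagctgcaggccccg

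The ISRE was found in 4 of the 6 members with a window whose doxorubicin libraries all lay above the DMSO libraries, and in 6 of the 7 whose doxorubicin libraries all lay below. It was found in 10 of the 20 tested members whose groups overlapped. The median log2 fold change was -0.077 over 20 tested members with the ISRE and -0.0017 over 13 without it. No ISRE match was found in the windows of STAT2 and IFI35, which were among the members that differed most. That of IFI35 held a GAS match, and so did that of IRF1, which is shown for comparison because its groups overlapped. The GAS letters are in capitals.
IFI35, higher, chr17:43006742-43006783, plus strand: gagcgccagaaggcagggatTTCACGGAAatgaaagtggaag
IRF1, overlapping, chr5:132490869-132490917, minus strand: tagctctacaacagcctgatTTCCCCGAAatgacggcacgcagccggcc

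As a group the ISGs were split between both directions. Of the 41 tested members, 21 had a positive and 20 a negative log2 fold change (51.1% and 48.9% of all genes), with a median of 0.0062 and an interquartile range of -0.40 to 0.49. Over all 14187 genes tested the median was 0.013 and the interquartile range -0.35 to 0.41. The summed level of the members was 1458 and 1766 CPM in DMSO and 1575 to 1747 CPM in doxorubicin. At an adjusted p of 0.01 in edgeR, 0 members passed, where 4.02% of all genes did, and limma voom also called 0, where it called 3.71% of all genes. At an unadjusted p under 0.05 in edgeR, 13 of the 41 members (31.7%) passed, close to the 30.8% of all genes. Of these, 8 were higher and 5 lower, against 15.2% and 15.6% of all genes. DESeq2 on the same groups called 4 members at the same adjusted p, all higher, where 14.1% of all genes were called, 6.37% as higher and 7.72% as lower. These were STAT2, ISG15, IFI6 and IFI35, and they were also the only members under an adjusted p of 0.05 in edgeR, where 13.6% of all genes were, 6.1% higher and 7.48% lower. The 4 were 9.76% of the tested members in either case, below the share of all genes called and above that called as higher. In 15 members (36.6%) the ranges of the groups were separate, 8 higher and 7 lower. They were so in 47.7% of all genes, 24.3% higher and 23.4% lower.

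**Figure D1:**
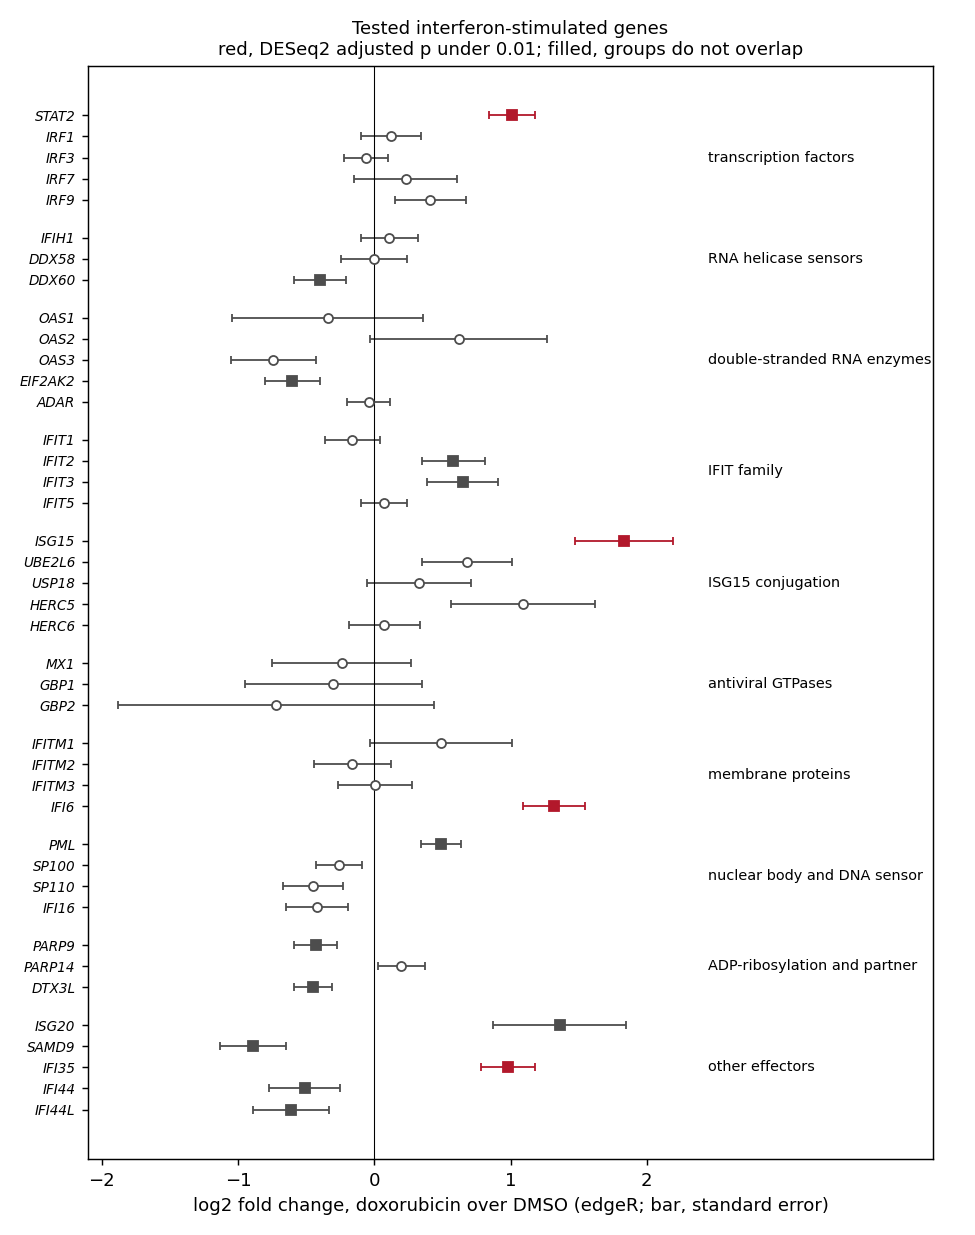
Log2 fold change (x axis, doxorubicin over DMSO, edgeR) of the 41 tested members, grouped by role, with bars for the standard error. Red squares are the 4 members under an adjusted p of 0.01 in DESeq2 (STAT2, ISG15, IFI6 and IFI35), filled symbols are members whose groups do not overlap, and the values run from -0.89 (SAMD9) to 1.83 (ISG15).

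Of the 5 transcription factors, 1 (STAT2) was called in DESeq2 and the groups of the other 4 overlapped. STAT2 (chromosome 12 of GRCh38, 56341597 to 56360107), the STAT that is particular to type I and III interferon signalling, was at 103 and 90.1 CPM in the DMSO libraries. It was at 170 and 217 CPM in the 0.2 µM libraries and at 194 CPM in the 0.34 µM library. All doxorubicin libraries were thus well above the DMSO libraries. The mean was 96.5 ± 8.99 CPM (SD, n = 2) in DMSO and 194 ± 23.6 CPM (SD, n = 3) in doxorubicin, a log2 fold change of 1.01 ± 0.17 (SE). The adjusted p was 0.0127 in edgeR, just outside the threshold, and 5.2e-06 in DESeq2, and over the settings and tools tried it was between 5.2e-06 and 0.066. In DESeq2, STAT2 was called with each of the 5 libraries left out in turn. IRF9, the DNA-binding subunit of ISGF3, was at 17.1 and 10.5 CPM in DMSO and at 20.1, 15.3 and 19.9 CPM in doxorubicin. Its groups overlapped, with a log2 fold change of 0.41 ± 0.26 (SE, adjusted p = 0.337 in edgeR), and whether it differed from that of STAT2 was not tested. IRF1, which drives ISGs on its own, was at 23.5 and 33.8 CPM in DMSO and at 29.8, 36.0 and 27.4 CPM in doxorubicin, a log2 fold change of 0.12 ± 0.22 (SE). IRF3, the factor downstream of nucleic acid sensing, had a log2 fold change of -0.062 ± 0.16 (SE). It overlaps BCL2L12, so that its counts are uncertain. IRF7, the amplifier of interferon production, was low, at 1.49 and 2.23 CPM in DMSO and between 1.54 and 2.67 CPM in doxorubicin.

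ISG15 and the 4 members listed with its conjugation were all on the positive side, where 51.1% of all genes were, and HERC6 was close to 0. ISG15 itself had the largest fold change of the tested members. The groups of the other 4 overlapped, and none of them was called in edgeR or DESeq2 with all libraries. ISG15 (chromosome 1, 1013497 to 1014540) had 70 and 71 counts in DMSO, 252 and 150 at 0.2 µM and 477 in the deeper 0.34 µM library. This was 2.67 and 2.78 CPM in DMSO and 9.74, 6.24 and 13.1 CPM in doxorubicin, so that the lowest doxorubicin library was over the DMSO libraries by more than these differed. The mean was 2.73 ± 0.0782 CPM (SD, n = 2) in DMSO and 9.71 ± 3.45 CPM (SD, n = 3) in doxorubicin. The log2 fold change was 1.83 ± 0.36 (SE), with an adjusted p of 0.022 in edgeR and 3.3e-05 in DESeq2, and between 1.3e-07 and 0.0892 over the settings and tools tried. It was called by DESeq2 without each of the 5 libraries in turn. UBE2L6, the conjugating enzyme for ISG15, was at 21.3 and 11.1 CPM in DMSO and at 27.1, 19.5 and 31.1 CPM in doxorubicin, with overlapping groups and a log2 fold change of 0.68 ± 0.33 (SE, adjusted p = 0.218 in edgeR). Without DMSO replicate 1 it was called in DESeq2 (adjusted p = 0.00477, against 0.162 with all libraries and up to 0.633 without another). HERC5, the main ligase for ISG15, was at 2.59 and 6.82 CPM in DMSO and at 6.46, 15.6 and 8.05 CPM in doxorubicin. In DMSO and at 0.2 µM replicate 2 was higher than replicate 1 by over 1 on the log2 scale. Between libraries of the same replicate number, 0.2 µM was above DMSO by 1.29 and 1.19, though the numbers were not taken as a pairing. Over all libraries HERC5 had a log2 fold change of 1.09 with an SE of 0.53 (adjusted p = 0.221 in edgeR). Without DMSO replicate 2 it was called in DESeq2 (adjusted p = 0.00385, against 0.122 with all libraries and up to 0.556 without another). HERC6, a related HERC protein encoded next to HERC5, had a log2 fold change of 0.073 ± 0.26 (SE). Without single libraries it ran from -0.14 to 0.29, so that its sign was not stable. USP18, which removes ISG15 and restrains the interferon receptor, was at 1.14 and 1.53 CPM in DMSO and at 1.43, 2.20 and 1.41 CPM in doxorubicin.

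Of the 4 tested membrane proteins, 1 (IFI6) was called in DESeq2, and whether it differed from the IFITM proteins was not tested. IFI6 (chromosome 1, 27666064 to 27672192), a small membrane protein described as antiviral and anti-apoptotic, was at 6.03 and 4.78 CPM in DMSO and at 14.0, 11.7 and 14.7 CPM in doxorubicin. The doxorubicin libraries lay close together and all above the DMSO libraries. The mean was 5.40 ± 0.883 CPM (SD, n = 2) and 13.5 ± 1.59 CPM (SD, n = 3), a log2 fold change of 1.32 ± 0.23 (SE). The adjusted p was 0.0143 in edgeR and 8.3e-06 in DESeq2, with a range of 8.3e-06 to 0.0846 over the settings and tools tried. In DESeq2 the call was lost only without the 0.34 µM library, with an adjusted p of 0.0112. IFITM3, which traps virus in endosomes, had the highest level per length of all members in DMSO, 135 CPM per kilobase of transcript, and IFITM2 came next with 61.6. IFITM3 was at 108 and 56.9 CPM in DMSO and at 86.3, 73.4 and 88.6 CPM in doxorubicin. All doxorubicin libraries thus lay between the DMSO libraries, and the log2 fold change was 0.0062 ± 0.27 (SE), with a sign that changed under 6 of the alternatives. IFITM2 showed the same arrangement, with 81.7 and 42.3 CPM in DMSO and 60.6, 50.1 and 55.9 CPM in doxorubicin. IFITM1 was at 0.992 and 1.37 CPM in DMSO and at 2.17, 0.748 and 2.04 CPM in doxorubicin. Its groups overlapped, with a log2 fold change of 0.49 ± 0.52 (SE, adjusted p = 0.577 in edgeR). The IFITM genes lie within 13 kb of chromosome 11 and are close copies of each other, so that reads could be shared among them. BST2 (tetherin), which holds budding virus at the cell surface, had 2 to 6 counts in each library, and IFI27 had 0 to 5 counts in each library.

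The IFIT genes, which encode proteins that bind foreign RNA ends, lie within 119 kb of chromosome 10. At an adjusted p of 0.01, 0 of the 4 passed the test in edgeR or DESeq2, where 4.02% and 14.1% of all genes did. IFIT2 was at 14.6 and 11.1 CPM in DMSO and at 16.6, 23.3 and 17.7 CPM in doxorubicin, a log2 fold change of 0.58 ± 0.23 (SE, adjusted p = 0.146 in edgeR). IFIT3, which stabilises IFIT1, was at 39.6 and 40.3 CPM in DMSO and at 47.2, 84.7 and 56.1 CPM in doxorubicin, a log2 fold change of 0.65 ± 0.26 (SE, adjusted p = 0.148 in edgeR). Both lay higher in all doxorubicin libraries without passing the test, and replicate 2 of 0.2 µM was the highest in each. IFIT1, often used as the marker of an interferon response, was at 14.7 and 14.0 CPM in DMSO and at 11.6, 15.1 and 11.7 CPM in doxorubicin, with a log2 fold change of -0.16 ± 0.20 (SE). IFIT5 was at 30.1 and 30.2 CPM in DMSO and between 29.1 and 36.1 CPM in doxorubicin. All of the IFIT genes overlap LIPA in the annotation, and although the library kit was stranded, no source used here says whether the counting used the strand.

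Among the 5 tested enzymes that act on or are activated by double-stranded RNA, 4 had a negative log2 fold change. Of the 3 helicase sensors 2 had one, and 48.9% of all genes did. The negative values of ADAR and DDX58, given below, were close to 0. The exception among the enzymes was OAS2, at 0.62 ± 0.65 (SE). With all libraries, 0 of these genes passed the test in edgeR or DESeq2, where 4.02% and 14.1% of all genes did. EIF2AK2, the kinase PKR that stops translation on binding viral RNA, was at 98.5 and 87.5 CPM in DMSO and at 53.5, 76.8 and 53.9 CPM in doxorubicin. All doxorubicin libraries were below the DMSO libraries, with a log2 fold change of -0.60 ± 0.20 (SE, adjusted p = 0.0945 in edgeR and 0.0475 in DESeq2, between 0.00125 and 0.323 over the settings and tools tried). It was called in DESeq2 only without replicate 2 of 0.2 µM, with the lowest of these values. ADAR, the enzyme that edits adenosine to inosine in RNA and so keeps cellular RNA from being sensed, was the member with the highest CPM, 297 and 327 in DMSO and 279, 334 and 296 in doxorubicin. Its log2 fold change was -0.041 ± 0.16 (SE). OAS3, which makes the activator of RNase L, was at 16.6 and 29.7 CPM in DMSO and at 11.3, 17.6 and 12.9 CPM in doxorubicin, a log2 fold change of -0.74 ± 0.31 (SE, adjusted p = 0.158 in edgeR). Without DMSO replicate 1 it was called in DESeq2 (adjusted p = 0.00731, against 0.0998 with all libraries and up to 0.664 without another). OAS1 and OAS2 were low, at 0.305 to 1.33 CPM and 0.157 to 0.748 CPM over all libraries, and OASL had 0 counts in the DMSO libraries and 4, 0 and 7 with doxorubicin. The helicase sensors MDA5 (IFIH1) and RIG-I (DDX58) had log2 fold changes of 0.11 ± 0.21 (SE) and -0.0017 ± 0.24 (SE). DDX60 was at 21.8 and 17.9 CPM in DMSO and at 15.9, 13.0 and 16.3 CPM in doxorubicin, with a log2 fold change of -0.40 ± 0.19 (SE, adjusted p = 0.216 in edgeR).

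**Figure D2:**
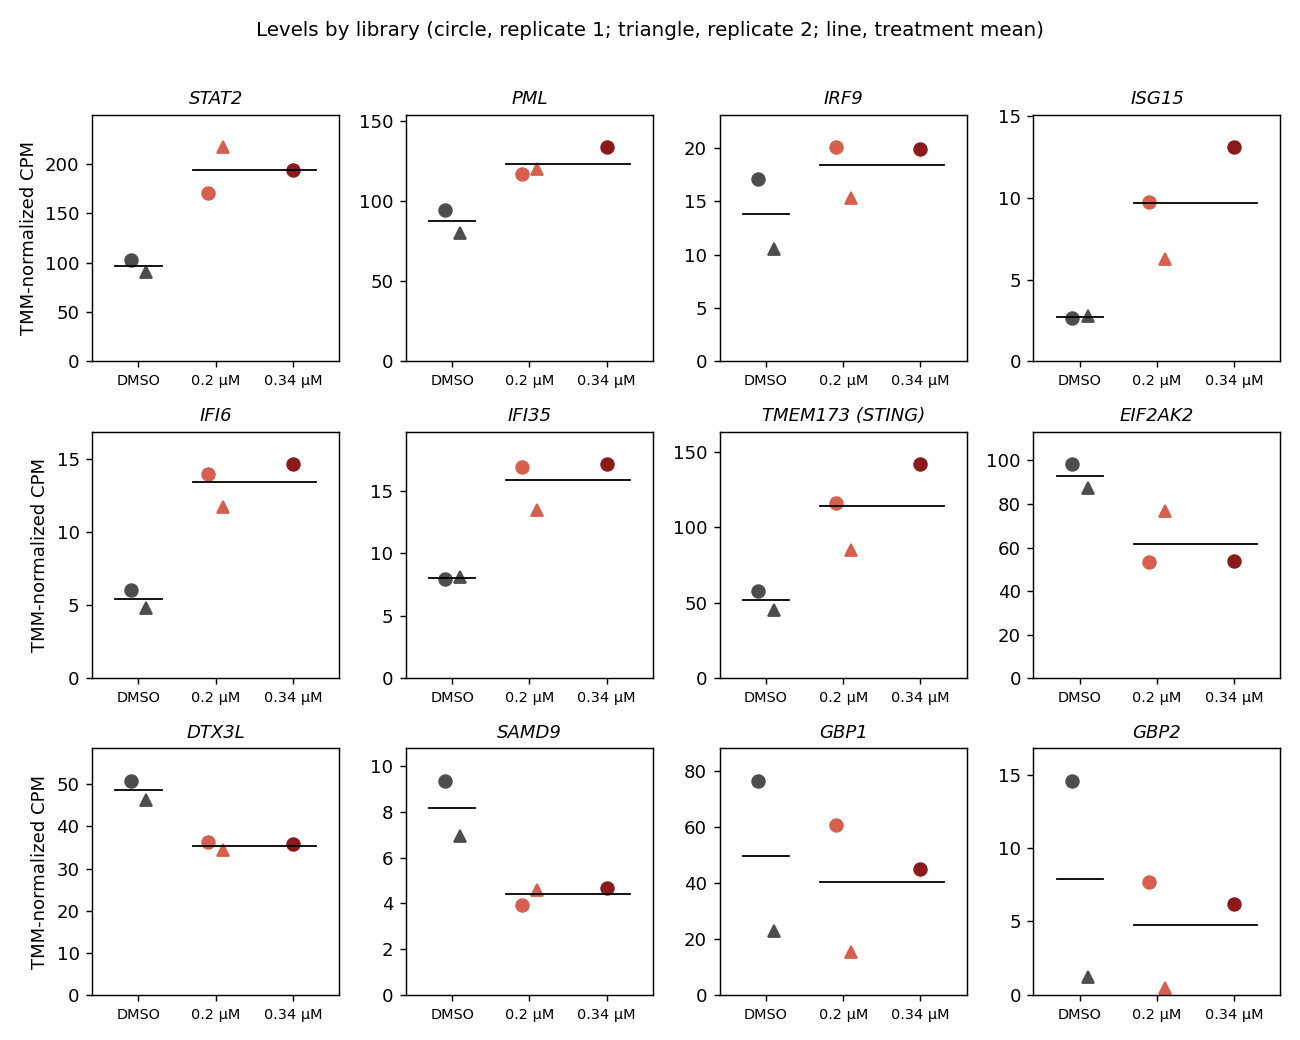
TMM-normalized CPM (y axis, from 0) in each library of 12 genes, for DMSO, 0.2 µM and 0.34 µM doxorubicin (x axis), with circles for replicate 1, triangles for replicate 2 and lines for the mean of the DMSO and of the doxorubicin libraries. STAT2, PML, ISG15, IFI6, IFI35 and TMEM173 lie higher in every doxorubicin library, EIF2AK2, DTX3L and SAMD9 lie lower, and GBP1 and GBP2 differ mainly between replicates.

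Of the 4 members listed for nuclear bodies and DNA sensing, 1 had a positive and 3 a negative log2 fold change. At an adjusted p of 0.01, 0 of them passed in edgeR or DESeq2, where 4.02% and 14.1% of all genes did. PML, the organiser of the nuclear bodies that bear its name, was at 94.9 and 80.3 CPM in DMSO and at 117, 120 and 134 CPM in doxorubicin. The groups did not overlap, and the log2 fold change was 0.49 ± 0.15 (SE, adjusted p = 0.0771 in edgeR and 0.0384 in DESeq2, between 0.0341 and 0.386 over the settings and tools tried). SP100, another constant component of these bodies, was at 194 and 158 CPM in DMSO and at 135, 169 and 137 CPM in doxorubicin. Its groups overlapped, with a log2 fold change of -0.26 ± 0.17 (SE, adjusted p = 0.366 in edgeR). SP110 had one of -0.45 ± 0.22 (SE, adjusted p = 0.227 in edgeR), also with overlapping groups. The nuclear DNA sensor IFI16 was at 172 and 111 CPM in DMSO and at 92.6, 125 and 99.0 CPM in doxorubicin, with a log2 fold change of -0.42 ± 0.23 (SE, adjusted p = 0.266 in edgeR) and overlapping groups. PARP9 and DTX3L, partners in a complex that modifies histones, are neighbours on chromosome 3 and were lower by nearly the same amount. DTX3L was at 50.9 and 46.3 CPM in DMSO and at 36.3, 34.3 and 35.8 CPM in doxorubicin. This was a log2 fold change of -0.45 ± 0.14 (SE, adjusted p = 0.0818 in edgeR and 0.0368 in DESeq2). PARP9 was at 31.4 and 27.2 CPM in DMSO and at 22.7, 22.0 and 20.4 CPM in doxorubicin. Its log2 fold change was -0.43 ± 0.16 (SE, adjusted p = 0.119 in edgeR and 0.0845 in DESeq2). The annotated genes overlap, so that they may share reads. PARP14, in the same 203 kb, was at 61.9 and 46.5 CPM in DMSO and at 58.7, 60.9 and 66.7 CPM in doxorubicin, and its groups overlapped.

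Of the remaining effectors, IFI35 and ISG20 were higher and SAMD9, IFI44 and IFI44L were lower in all doxorubicin libraries. IFI35 (chromosome 17, 43006784 to 43014456), a cytosolic protein that binds NMI, was at 7.93 and 8.11 CPM in DMSO and at 16.9, 13.5 and 17.2 CPM in doxorubicin. Its mean was 8.02 ± 0.122 CPM (SD, n = 2) and 15.9 ± 2.04 CPM (SD, n = 3), a log2 fold change of 0.98 ± 0.20 (SE). The adjusted p was 0.0251 in edgeR and 0.000486 in DESeq2, between 0.000486 and 0.147 over the settings and tools tried. This call was the least stable of those in DESeq2. It was kept without replicate 2 of 0.2 µM and lost without each of the other libraries, with an adjusted p of up to 0.0686. ISG20, an exonuclease that degrades viral RNA, had 14 and 8 counts in the DMSO libraries and 22, 23 and 53 with doxorubicin, a log2 fold change of 1.36 ± 0.49 (SE, adjusted p = 0.114 in edgeR). SAMD9, an antiviral protein that restrains cell growth, had the lowest log2 fold change of the tested members, -0.89 ± 0.24 (SE). It was at 9.38 and 6.97 CPM in DMSO and at 3.94, 4.57 and 4.68 CPM in doxorubicin, with an adjusted p of 0.0578 in edgeR and 0.0124 in DESeq2, and of 0.0124 to 0.227 over the settings and tools tried. IFI44L was at 7.02 and 6.82 CPM in DMSO and at 3.75, 5.90 and 4.0 CPM in doxorubicin, a log2 fold change of -0.61 ± 0.28 (SE). Its neighbour IFI44 had one of -0.51 ± 0.26 (SE), with 5.91 and 5.6 CPM in DMSO and 4.52, 4.28 and 3.31 CPM in doxorubicin. The paired genes RSAD2 (viperin) and CMPK2, which are adjacent on chromosome 2, and XAF1 had no count in any of the libraries, which allows up to 0.125 CPM at a count of 0 in the shallowest. Viperin is among the genes that interferon induces most strongly in many cells.

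**Figure D3:**
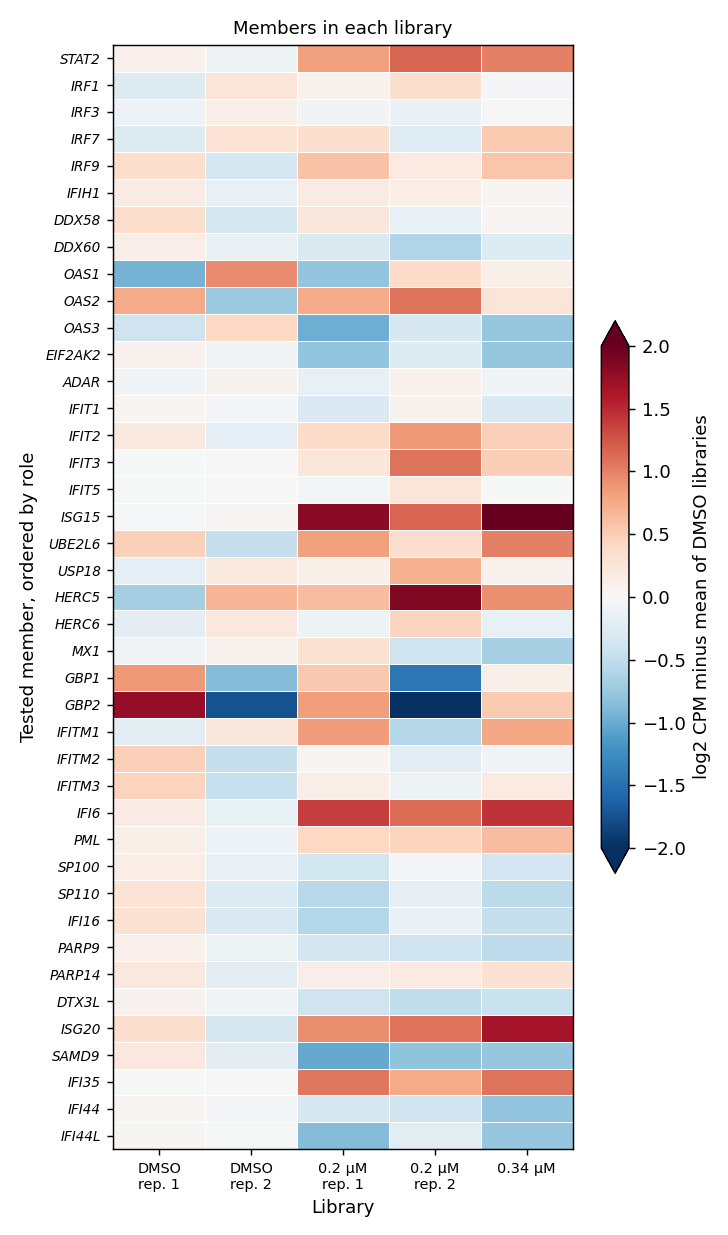
Log2 CPM minus the mean of the DMSO libraries (colour, from blue for lower to red for higher, with values beyond 2 at the end colours) of the 41 tested members (rows, by role) in the 5 libraries (columns). ISG15, IFI6, STAT2, IFI35 and ISG20 are red in every doxorubicin library, SAMD9 and EIF2AK2 are blue, and the rows of GBP1, GBP2 and OAS1 follow the replicates.

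GBP2 had the largest difference between replicates of all tested members, in DMSO and at 0.2 µM. GBP1, a guanylate-binding protein induced mainly by interferon gamma, was at 76.5 CPM in replicate 1 and 22.8 CPM in replicate 2 of DMSO, at 60.7 and 15.4 CPM in the 0.2 µM replicates and at 45.0 CPM at 0.34 µM. GBP2, its neighbour within 73.8 kb of chromosome 1, was at 14.6 and 1.21 CPM in DMSO, at 7.66 and 0.457 CPM at 0.2 µM and at 6.17 CPM at 0.34 µM. Replicate 2 was thus far below replicate 1 in both conditions. The difference on the log2 scale was -1.74 in DMSO and -1.98 at 0.2 µM for GBP1, and -3.51 and -3.87 for GBP2. The log2 fold changes after doxorubicin were -0.30 ± 0.65 (SE) and -0.72 ± 1.16 (SE), smaller than these differences. That of GBP2 was 1.97 without DMSO replicate 1, which leaves the low replicate 2 as the only DMSO library. Between libraries of the same replicate number, 0.2 µM minus DMSO was -0.33 and -0.57 for GBP1 on the log2 scale. For GBP2 it was -0.92 and -1.28, though the numbers were not taken as a pairing. COL1A1, listed as a mesenchymal marker and not a member, was also far lower in replicate 2. It was at 287 and 64.5 CPM in DMSO, 189 and 42.7 CPM at 0.2 µM and 151 CPM at 0.34 µM. Its log2 difference between replicates was -2.15 in DMSO and -2.14 at 0.2 µM. The others of this list, VIM, COL1A2 and PDGFRB, had differences of 0.0022, -0.14 and -0.49 in DMSO. At 0.2 µM theirs were -0.15, -0.26 and -1.14. The sum over this list was 5969 to 6222 CPM in DMSO and 4844 to 5615 CPM in doxorubicin, most of it VIM. What sets the replicates apart was not tested. MX1, the classical antiviral GTPase, had 9 to 17 counts in each library. MX2 had 0 counts in the DMSO libraries and 4, 4 and 1 with doxorubicin, did not pass the filter and was not tested.

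Over the 41 tested members, the median absolute log2 difference between replicates was 0.395 in DMSO and 0.368 at 0.2 µM, against 0.365 and 0.293 over all genes tested. The median absolute log2 fold change of the members was 0.43, and in 19 of the 41 it was larger than the difference between the DMSO replicates. The replicate differences of DMSO and 0.2 µM had the same sign in 22 of the 41 members. Their Pearson's r was 0.704 across the 41 members and 0.35 across 39 without GBP1 and GBP2, where members are not independent and each value shares its libraries. In 5 members the DMSO replicates differed by more than 1 on the log2 scale, and these included HERC5, OAS1 and OAS2 besides the GBP genes.

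**Figure D4:**
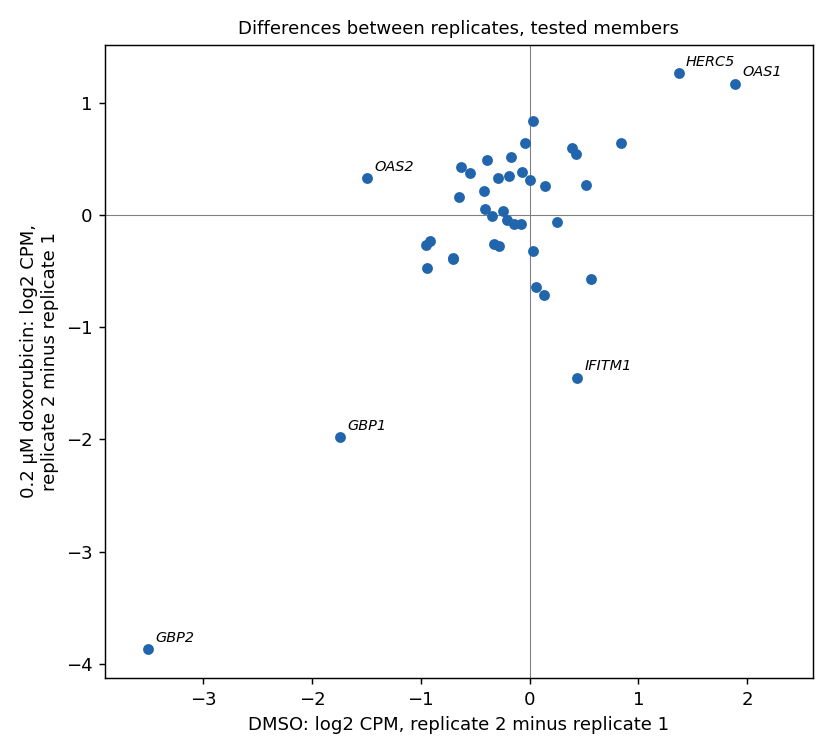
Log2 CPM of replicate 2 minus replicate 1 in DMSO (x axis) and at 0.2 µM doxorubicin (y axis) for the 41 tested members, with names for those beyond 1 on either axis. GBP2 (-3.51 and -3.87) and GBP1 (-1.74 and -1.98) lie far out at the lower left and HERC5 and OAS1 at the upper right.

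The genes that act upstream of the ISGs were taken from a list of 37 ligands, receptors, kinases, sensors, adaptors and brakes outside the members, of which 27 were tested. In edgeR 0 of them passed the threshold, where 4.02% of all genes did. In DESeq2 3 did (11.1%), all higher, against 14.1% of all genes in either direction and 6.37% as higher. The 3 were STING (TMEM173), TLR3 and DHX58. They were again those under an adjusted p of 0.05 in edgeR, where 13.6% of all genes were, 6.1% as higher. At an unadjusted p under 0.05 in edgeR, 4 (14.8%) were higher and 2 (7.41%) lower, against 15.2% and 15.6% of all genes. The median log2 fold change of the 27 was -0.0022. The groups were separate in 10 (37%), 5 higher and 5 lower, against 24.3% and 23.4% of all genes. Of the 8 brakes, 6 had a negative log2 fold change, where 48.9% of all genes did. PIAS1 lay lower in all doxorubicin libraries, at -0.68 ± 0.26 (SE, adjusted p = 0.128 in edgeR). SOCS1 was at 1.14 ± 0.60 (SE, adjusted p = 0.248 in edgeR), with overlapping groups. STING was at 58.0 and 45.3 CPM in DMSO and at 116, 84.8 and 142 CPM in doxorubicin, a log2 fold change of 1.14 ± 0.25 (SE, adjusted p = 0.0295 in edgeR and 0.000386 in DESeq2, between 1.9e-06 and 0.119 over the settings and tools tried). cGAS, the DNA sensor that activates STING and is listed as MB21D1, had 0 counts in the DMSO libraries and 4, 6 and 2 with doxorubicin. It did not pass the filter and was not tested. TLR3, the endosomal sensor of viral RNA, was at 8.35 and 6.27 CPM in DMSO and at 13.6, 16.0 and 14.8 CPM in doxorubicin. DHX58, a regulator of the helicase sensors, was at 4.08 and 4.78 CPM in DMSO and at 8.97, 7.57 and 8.21 CPM in doxorubicin. With each of the 5 libraries left out in turn, DESeq2 called STING in 3 cases, TLR3 in 1 and DHX58 in 0.

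The ligands were absent or low. IFNB1, the interferon that most cells make first, had no count in any library, and neither had IFNA2, IFNG, IFNL1, IFNL2 or IFNL3. IFNA1 had 10 to 11 counts per DMSO library and 3 to 9 per doxorubicin library, and IFNE had 32 to 55 counts in each library. IFNE overlaps MIR31HG in the annotation, so that its counts are uncertain. IFNK had 1 count in all libraries together. The receptor chain IFNAR1 was at 82.9 and 96.2 CPM in DMSO and at 92.8 to 101 CPM in doxorubicin (log2 fold change 0.11 ± 0.14, SE), and IFNAR2 had a log2 fold change of 0.0085 ± 0.21 (SE). Those of the kinases JAK1 and TYK2 were 0.049 ± 0.20 (SE) and 0.11 ± 0.20 (SE). JAK2, which serves the interferon gamma receptor, was at 19.3 and 14.9 CPM in DMSO and at 11.4, 9.40 and 10.7 CPM in doxorubicin. Its log2 fold change was -0.71 ± 0.20 (SE, adjusted p = 0.0662 in edgeR and 0.019 in DESeq2). The adaptor MAVS and the kinase TBK1 had log2 fold changes of -0.0022 ± 0.14 (SE) and 0.22 ± 0.20 (SE).

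Between the doses, 0 members passed an adjusted p of 0.01 in edgeR, DESeq2 or limma voom, as did 0 of all genes. At an unadjusted p under 0.05, 0 members passed in edgeR and in DESeq2, where 0.155% of all genes did in edgeR and 0.159% in DESeq2. With 1 library at 0.34 µM, the error of this test rests on the DMSO and 0.2 µM pairs, and it cannot show that the doses acted alike. Over all genes, the 0.34 µM library was closer to replicate 1 of 0.2 µM (chi-square per degree of freedom 9.01) than to replicate 2 (74.1), and the 0.2 µM replicates differed from each other by 75.3. The smallest unadjusted p of the members was that of ISG15, 0.137 in edgeR (adjusted p = 1 as rounded), with a log2 difference of 0.72 ± 0.43 (SE) for 0.34 over 0.2 µM. ISG20 and UBE2L6 came next, with log2 differences of 0.69 ± 0.66 (SE) and 0.42 ± 0.44 (SE). Over the 41 members these differences were between -0.78 and 0.72, with a median of -0.012, and over all genes tested the median was -0.017.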

How the data were processed

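The authors mapped 75 bp paired-end reads to hg38 with STAR, counted them with Rsubread (featureCounts) on the iGenomes annotation, and deposited the raw counts. No versions or strand setting are stated in the sources read. Their second table holds their own DESeq2 comparison (fold changes, p-values) and was not used. R 4.3.3 was used, with edgeR 4.0.16, limma 3.58.1 and DESeq2 1.42.0. The main comparison set 3 doxorubicin against 2 DMSO libraries in edgeR (quasi-likelihood, TMM, no covariates), after a filter on low counts (minimum count 10, minimum total 15), with Benjamini-Hochberg adjustment over all 14187 genes tested. The threshold was an adjusted p of 0.01. The doses were compared in a fit of 3 conditions. The SE of a fold change was obtained from the F statistic. Log2 CPM per library used a prior count of 2. Scripts were tested on simulated data. Other tools, DESeq2's size factors, no filter, other groupings of the doses, a replicate block, an adjusted p of 0.05 and leaving out each library were also run. DESeq2, and edgeR at an adjusted p of 0.05, with each library left out were added after seeing the data. The study calls the libraries biological replicates. Within a condition they differed by a chi-square per degree of freedom of 117 (DMSO) and 75.3 (0.2 µM), so none was a copy, and the closest pair, at 9.01, was replicate 1 of 0.2 µM and the 0.34 µM library. The 3-count floors cover counting error only. Levels per kilobase used canonical transcript lengths of GENCODE, not the authors' annotation. Positions and promoter windows are those of RefSeq (GRCh38.p14), where 47 members matched by symbol and 1 by an older symbol. Another annotated gene overlaps 23 of the members, EIF2AK2 among them, and also JAK2. What this does to their counts was not tested. The members, lists, roles and motifs were chosen with earlier results of these data known. Genes named with full values were those past the threshold in edgeR or DESeq2, the 4 highest and 4 lowest fold changes, a fixed set of well-known members and the 3 smallest p-values between doses, and every other member is given by its values or counts. JAK2, PIAS1, SOCS1, COL1A1 and the other mesenchymal markers were named after their values were seen. A further pathway gene is not reported here.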

Additional observations from a re-analysis of the deposited data

How the results depend on the processing

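At an adjusted p of 0.01, edgeR called 0 members with all libraries, with DESeq2's size factors, in the other groupings of the doses and without each library (0 to 0), and limma voom called 0. It called 3 without the filter on low counts (IFI6, ISG15, STAT2). DESeq2 called 4, and 2 to 5 without each library, the fewest without the 0.34 µM library (ISG15, STAT2). At an adjusted p of 0.05 edgeR called 4, and 0 to 5 without each library, with 0 without the 0.34 µM library. Of all genes, edgeR called 571, against 2026 in DESeq2, 1020 without the filter, 1927 at an adjusted p of 0.05, 171 and 178 for 0.2 µM against DMSO in a fit of 3 conditions and in the DMSO and 0.2 µM libraries alone, and 49 to 215 without each library, the fewest without DMSO replicate 2. Of the pathway genes, DESeq2 called 3, and 0 to 2 without each library, the fewest without the 0.34 µM library, and edgeR called 3 at an adjusted p of 0.05. The median log2 fold change of the members, 0.0062, was 0.049 in limma voom, 0.075 without the filter, and -0.012 to 0.12 without each library, the highest without DMSO replicate 1. The causes of these differences were not tested.

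With the replicate number as a block, in the DMSO and 0.2 µM libraries, edgeR called 4 members (HERC5, IFI6, ISG15, STAT2), 1 pathway gene (TMEM173) and 1249 of all genes (8.99%). The replicate differences of both conditions had a Pearson's r of 0.528 across 14187 genes, but with 2 pairs the numbers were not taken as a pairing.

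Of 384 alternatives for 32 single genes, 340 kept the direction and side of the threshold, 15 passed it, and 29, in 11 genes, turned the direction. Without single libraries, the log2 fold change ran from -1.62 to 1.97 for GBP2, from -1.05 to 1.05 for OAS1, from -0.57 to 0.38 for IFITM2, from -0.13 to 0.38 for IRF1, from -0.12 to 0.02 for ADAR, from -0.0041 to 0.20 for IFNAR1, from -0.075 to 0.31 for TYK2 and from -0.21 to 0.34 for JAK1. The turns came without DMSO replicate 1 (GBP2, IFITM2, IRF1, IFNAR1, TYK2), without DMSO replicate 2 (OAS1, JAK1, ADAR) and without 0.2 µM replicate 1 (ADAR). IFITM3 was at -0.00097 in DESeq2, -0.046 and -0.037 for 0.2 µM in 3 conditions and alone, and -0.40 to 0.53 without single libraries. IFNAR2 was at -0.00039 in DESeq2, -0.079 and -0.074 for 0.2 µM in 3 conditions and alone, -0.089 with the replicate block, and -0.074 to 0.14 without single libraries. MAVS was at 1.7e-05 without the filter, 0.035 and 0.038 for 0.2 µM in 3 conditions and alone, 0.037 with the replicate block, and -0.059 to 0.038 without single libraries. With 2 to 3 libraries a group and 3 counts at 0.0827 to 0.125 CPM, small changes in members of few counts were not detectable at this depth. BST2, IFI27, OASL and MX2 did not pass the filter and were not tested, and neither were RSAD2, CMPK2 and XAF1, which had no count.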
